A study of Mus musculus with 24 samples.

Results

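Cytosolic ribosomal protein genes were taken by name from the gene table: symbols beginning with Rpl or Rps and a number, together with Rplp0, Rplp1, Rplp2 and Rpsa. Of 102 names that matched, 6 pseudogene names and 10 kinases of the Rps6k family were left out. This gave 86 of 14737 gene records, 52 named for the large subunit and 34 for the small subunit. The name rule also takes in Rps19bp1, a partner protein of Rps19 that is not itself part of the ribosome, and Rpl7l1, a relative of Rpl7 known as a ribosome assembly factor. The rule used names only, but it was set with earlier results of these data known.

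The cells were mouse embryonic stem cells of strain 129/Sv, either wild type (WT) or heterozygous for a Carma allele carrying a 3xpA cassette (Carma3xpA/+). In the usual notation 3xpA is a run of polyadenylation signals that ends transcription early, and Carma is a long noncoding RNA gene. Undifferentiated cells (d0) of both genotypes grew on mouse embryonic fibroblast feeders in medium with serum and LIF. Differentiation towards heart cells was started by hanging-drop aggregation into embryoid bodies, in a medium with serum and ascorbic acid, and these were collected at d3, d6 and d10. Each of the 8 groups had 3 libraries of polyadenylated RNA, 24 in all. The replicates are called biological, with no word on separate clones or cultures. The p-values thus cover only the spread among these 24 libraries, part of which may be technical.

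Ribosomal proteins assemble with ribosomal RNA into the small subunit, which decodes the messenger RNA, and the large subunit, which joins amino acids. In mammals nearly every one is encoded by a single active gene, and these genes are among the most strongly transcribed in any growing cell. Their messages begin with a run of pyrimidines, the TOP motif, through which mTOR signalling controls their translation. A few have a second expressed copy that is used in particular tissues, such as Rpl10l and Rpl39l in male germ cells or Rpl3l in heart and skeletal muscle.

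Values are FPKM, read fragments scaled to transcript length and to the mapped total of the library. Levels of different genes can be set side by side only roughly. Short transcripts and reads shared between near-identical copies can distort them, and their part was not tested. The highest of the pseudogene names left out averaged 124 FPKM over the 24 libraries. Summed FPKM per library lay between 245274 and 306848. The read depth is unknown, and no value carries a counting interval. Differences are on the log2(FPKM + 1) scale from a limma model over all 24 libraries and 13373 tested genes. Calls rest on an adjusted p (Benjamini-Hochberg, within each comparison) under 0.05. Of the 86 members 85 passed the filter of at least 1 FPKM in at least 3 libraries, and Rpl3l did not.

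One library stood apart. In Carma3xpA/+ d0 replicate 1 the members held 20.9% of summed FPKM, against 11.7% to 16.1% in the other 23 libraries. There 82 of the 86 members had their highest value of all 24 libraries, and the median member was 1.91 times the mean of replicates 2 and 3. Its Pearson correlation across genes with replicates 2 and 3 was 0.954 and 0.959, whereas replicates 2 and 3 had 0.991 between them. Results are therefore given with and without it. Markers of fibroblasts, the feeder cell type, summed to 13.8 to 29.7 FPKM over its group and 16.3 to 21.4 FPKM in WT d0 (7 of 7 detected), and their part was not tested. The deviations followed transcript length. In this library the members lay 0.94 (log2) above the mean of replicates 2 and 3, 500 other genes with transcripts up to 1000 bases lay 0.43 above it, and 856 genes over 4000 bases lay 0.53 below it. The members' deviation had the same sign as that of the short genes in 21 of 24 libraries, each taken against the other libraries of its group, and 58 of the 86 members have a leading transcript of up to 1000 bases. The part of transcript length in the differences below was not tested. In bulk RNA, a change in the cell types of the embryoid bodies and a change per cell cannot be told apart.

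**Figure D1:**
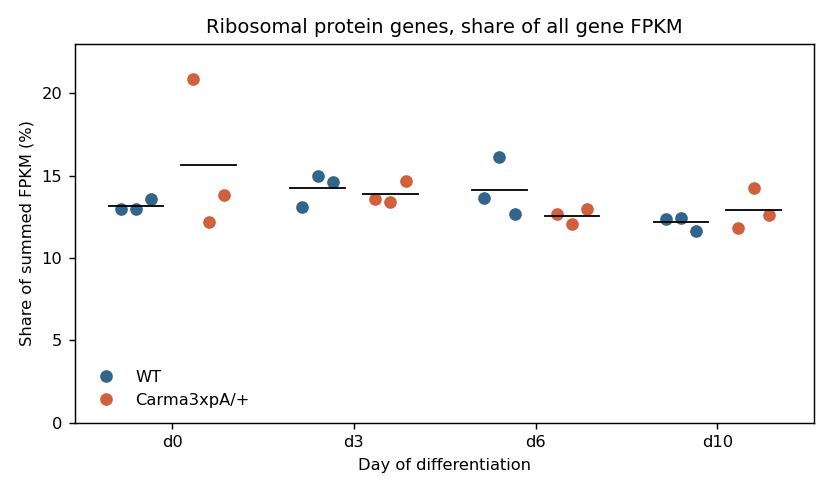
Share of summed FPKM held by the 86 ribosomal protein genes (y axis, %) by day of differentiation (x axis). Each point is 1 library, blue for WT and orange for Carma3xpA/+, and each black line is a group mean. The highest point, 20.9%, is replicate 1 of Carma3xpA/+ at d0, and the other 23 libraries lie between 11.7% and 16.1%.

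The members were among the most abundant messages at every stage. The median member averaged 344 FPKM over the 24 libraries against 4.72 FPKM for all gene records, 75 members reached a mean of 100 FPKM and 8 reached 1000 FPKM. The highest 5 were Rpl8 with 1526 FPKM, Rpl23a with 1503, Rpl17 with 1434, Rplp1 with 1418 and Rps15 with 1295. The lowest 5 were Rpl3l with 0.316 FPKM, Rpl39l with 13.9, Rpl10l with 22.4, Rpl34 with 25.9 and Rps27rt with 31.8. Of these 5 only Rpl34 is an ordinary subunit gene, and the others are second copies of Rpl3, Rpl39, Rpl10 and Rps27.

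As a share of summed FPKM the members held 13.2% ± 0.328 (SD, n = 3) in WT d0, 14.2% ± 0.977 at d3, 14.1% ± 1.78 at d6 and 12.2% ± 0.432 at d10. In Carma3xpA/+ the shares were 15.6% ± 4.61 at d0, or 13.0% without replicate 1, then 13.9% ± 0.691 at d3, 12.6% ± 0.439 at d6 and 12.9% ± 1.26 at d10. The ranges of WT d0, d3 and d6 overlapped, and every WT d10 library, at 11.7% to 12.5%, lay below every other WT library. Summed over members, the large subunit had 1.64 to 1.85 times the FPKM of the small subunit in every library.

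Most members kept a narrow range across differentiation. Without the library that stood apart, the median fold between a member's highest and lowest group mean was 1.37, against 2.72 over all tested genes. For 66 of the 86 members (76.7%) this fold was under 1.5, compared with 6.77% of tested genes. Among 322 other genes that average 100 FPKM or more, 12.4% were under 1.5, against 85.3% of the 75 members at that level. These are descriptions, as the groups share libraries and genes are not replicates. Rpl23a, a large subunit protein near the exit tunnel, had group means within 1.39-fold of each other. Rps4x, the X-linked small subunit protein S4, stayed within 1.28-fold. Rpsa, which is also known as a laminin receptor, stayed within 1.29-fold. Only 4 members exceeded 2-fold: Rpl10l with 52.0-fold, Rpl39l with 58.4-fold, Rpl3l with 12.9-fold and Rps27rt with 2.26-fold. The lowest group means of Rpl10l, Rpl39l and Rpl3l were 1.08, 0.564 and 0.0636 FPKM, near the floor, so the size of their folds is uncertain.

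**Figure D2:**
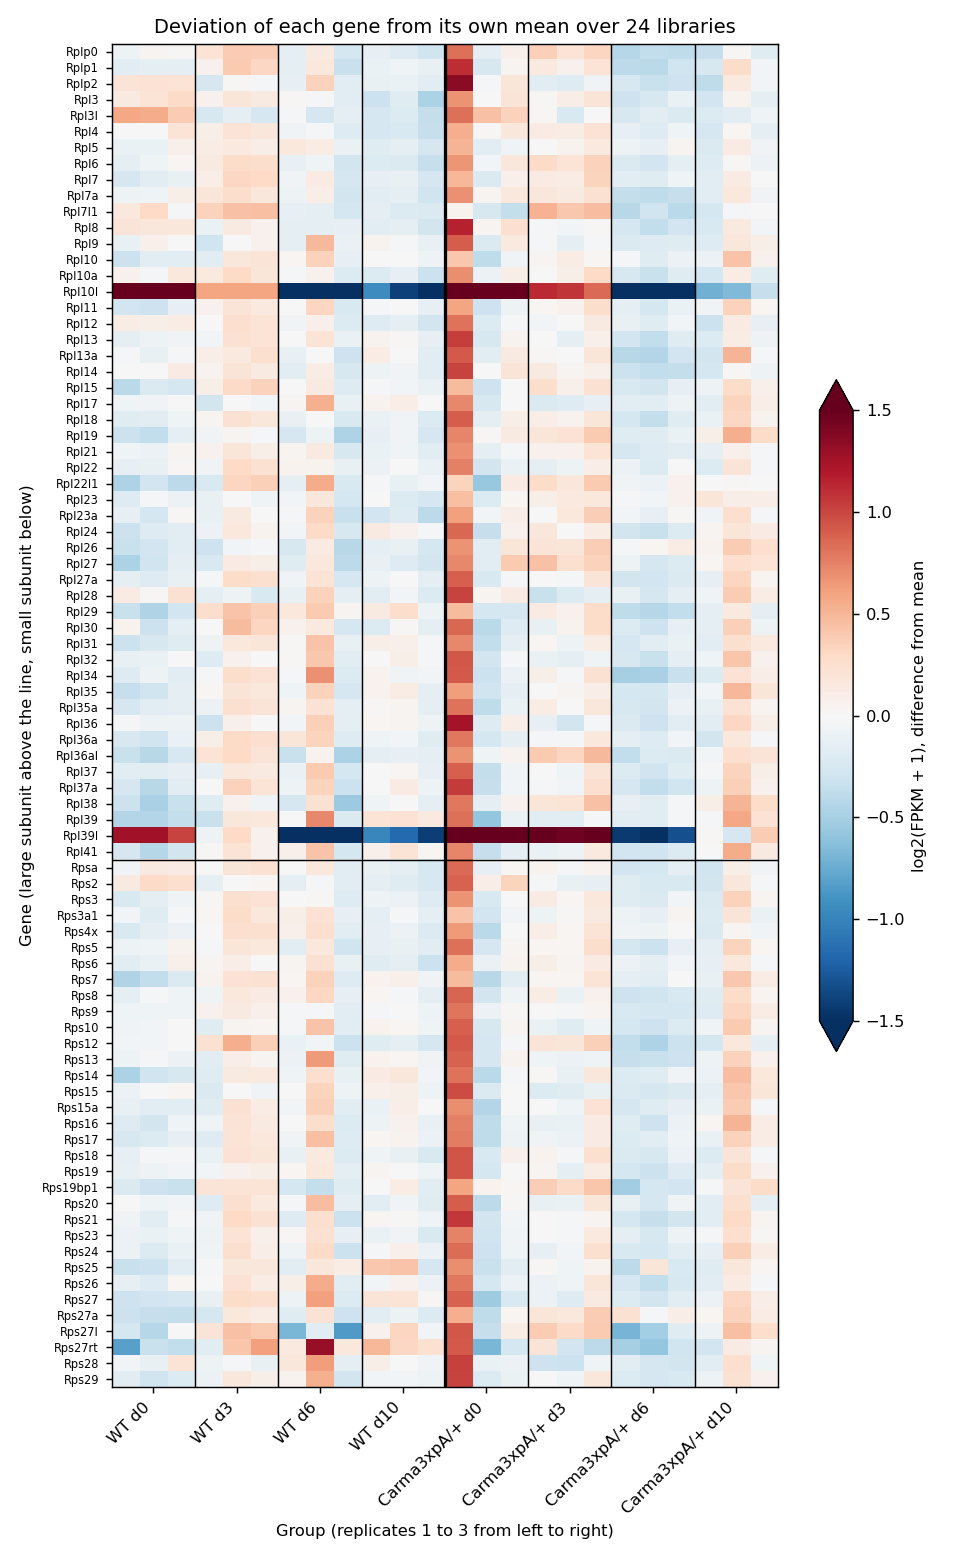
Deviation of 84 of the 86 genes (rows, large subunit above the line and small subunit below) from their own means over the 24 libraries, in log2(FPKM + 1) (colour, blue below and red above). Columns are the libraries of the 8 groups, and the thick line separates WT from Carma3xpA/+. Rpl10l and Rpl39l change by stage in both genotypes, and replicate 1 of Carma3xpA/+ d0 is a red column in which 82 of 86 members have their highest value.

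Rpl10l and Rpl39l fell steeply as the cells left the undifferentiated state and were the members with the widest change in both genotypes. Rpl10l is an intronless copy of the X-linked Rpl10 that in mouse stands in for it in male meiosis. It lies on chromosome 12 (mm10, chr12:66283379-66284401, minus strand, 1 exon), and its coding sequence matches that of Rpl10 at 84.7% of 642 bases. Rpl39l, a copy of the X-linked Rpl39 needed for normal sperm in mouse, lies on chromosome 16 (chr16:10170226-10174911, plus strand, 3 exons), with 85.0% of 153 coding bases identical. The promoter windows below, from RefSeq (GRCm38.p6, 60 bases before to 10 after the annotated start), are shown because parent and copy behaved differently. Capitals mark a run of C and 5 further pyrimidines that begins within 10 bases of the start.
Rpl10 (chrX:74270756-74270825, plus strand): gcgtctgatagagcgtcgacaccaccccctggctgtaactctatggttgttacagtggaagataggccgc
Rpl10l (chr12:66284392-66284461, minus strand): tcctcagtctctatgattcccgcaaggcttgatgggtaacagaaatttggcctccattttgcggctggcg
Rpl39 (chrX:37085213-37085282, minus strand): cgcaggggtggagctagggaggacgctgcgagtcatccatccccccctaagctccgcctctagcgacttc
Rpl39l (chr16:10170168-10170237, plus strand): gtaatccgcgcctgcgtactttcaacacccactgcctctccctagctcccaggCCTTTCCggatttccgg
Among these 4 windows only that of Rpl39l holds such a run at the annotated start. Over 78 promoter records of 66 matched members 46.2% hold it, against 18.5% of all 32851 records, searched on the sense strand. The ETS core CCGGAAG, searched on both strands over 300 bases, was in 34.6% of member records and 8.86% of all. The GC box GGGCGG was in 60.3% and 35.7%, AAGATGGC, a YY1 motif, in 10.3% and 2.75%, and TATAAA in 8.97% and 13.6%. A match is a description of these letters, not a bound site.

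In WT, Rpl10l stood at 54.4, 59.0 and 54.7 FPKM in the d0 libraries and at 16.3, 16.3 and 16.2 FPKM at d3. It was at 1.48, 0.956 and 0.792 FPKM at d6 and at 4.93, 3.33 and 2.77 FPKM at d10. No neighbouring stages overlapped: the level fell at d3, fell again at d6 and was higher at d10 than at d6, still below d3. The differences were -1.72 (SE 0.217, adjusted p = 1.29e-06, limma), -3.07 (2.16e-10) and 1.16 (0.000197). In Carma3xpA/+ the libraries gave 112, 48.8 and 55.0 FPKM at d0, 23.8, 23.1 and 19.6 at d3, 1.75, 1.75 and 1.43 at d6, and 5.97, 6.21 and 7.99 at d10. The same order held without overlap, and the 112 FPKM came from the library that stood apart. The steps were -1.56 (adjusted p = 5.79e-06, limma; -1.19 and 3.87e-06 without that library), -3.13 (1.65e-10) and 1.54 (8.17e-06). All 6 steps were called under every alternative run.

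Rpl39l followed the same course. Its WT libraries gave 19.9, 20.1 and 16.7 FPKM at d0, 7.34, 9.81 and 8.14 at d3, 0.524, 0.973 and 0.195 at d6, and 3.47, 2.90 and 2.29 at d10. The WT groups did not overlap, and the d6 libraries were the lowest. The WT steps were -1.08 (SE 0.238, adjusted p = 0.000658, limma), -2.61 (9.24e-09) and 1.33 (0.000121). In Carma3xpA/+ the values were 68.5, 28.7 and 37.1 FPKM at d0, 27.3, 23.2 and 25.5 at d3, 2.25, 1.64 and 2.52 at d6, and 7.85, 6.38 and 10.5 at d10. Here the d0 and d3 libraries stood close, with the lowest d0 library 28.7 against the highest d3 library 27.3. Their difference of -0.71 (adjusted p = 0.0173, limma) was -0.36 (0.148) without d0 replicate 1, and the call was also lost without d3 replicate 2. The later steps were -3.08 (7.93e-10) and 1.54 (2.24e-05).

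The parent genes did not share this course. Rpl10 ranged from 208 to 330 FPKM over the WT libraries and Rpl39 from 196 to 443 FPKM, and neither was called in any step of either genotype. Rpl10l amounted to 25.0% ± 1.42 (SD, n = 3) of the Rpl10 level in WT d0, 5.98% ± 0.848 at d3, 0.392% ± 0.143 at d6 and 1.43% ± 0.407 at d10. Rpl39l amounted to 9.45% ± 1.24, 3.16% ± 0.381, 0.167% ± 0.0725 and 0.941% ± 0.176 of Rpl39. All 7 of 7 pluripotency markers were detected, and their summed FPKM also dropped with differentiation: 1216 to 1282 in WT d0, 842 to 861 at d3, 67.9 to 82.7 at d6 and 76.3 to 107 at d10, the last pair overlapping. None of them was at 0 in all 3 libraries of a group, and their part in the result was not tested.

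Rpl39l was the member with the largest genotype difference at every day. It was higher in Carma3xpA/+ by 1.11 at d0 (SE 0.238, adjusted p = 0.00338, limma), 1.49 at d3 (0.000469), 1.02 at d6 (0.01) and 1.24 at d10 (0.00143). In mean FPKM this was 2.37-fold at d0, 3.01-fold at d3, 3.79-fold at d6 and 2.85-fold at d10. The d6 fold rests on a WT mean of 0.564 FPKM, near the floor. Each Carma3xpA/+ library exceeded each WT library of its day. Without d0 replicate 1 the d0 difference was 0.76 (0.0126), or 1.74-fold. The d6 call was lost (adjusted p up to 0.0623) without WT replicate 3 or without Carma3xpA/+ replicate 3. Relative to Rpl39 it stood at 15.1% ± 0.807 (SD, n = 3) in Carma3xpA/+ d0 against 9.45% ± 1.24 in WT d0, and at 10.3% ± 1.02 against 3.16% ± 0.381 at d3. For Rpl10l only the d10 difference was called, at 0.74 (SE 0.217, adjusted p = 0.0321, limma), or 1.83-fold. That call was lost (adjusted p up to 0.164) without WT d10 replicate 2 or 3 or Carma3xpA/+ d10 replicate 2 or 3. The other Rpl10l differences were 0.26 at d0 (adjusted p = 0.438), which was -0.11 without replicate 1, 0.42 at d3 (0.324) and 0.36 at d6 (0.403).

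**Figure D3:**
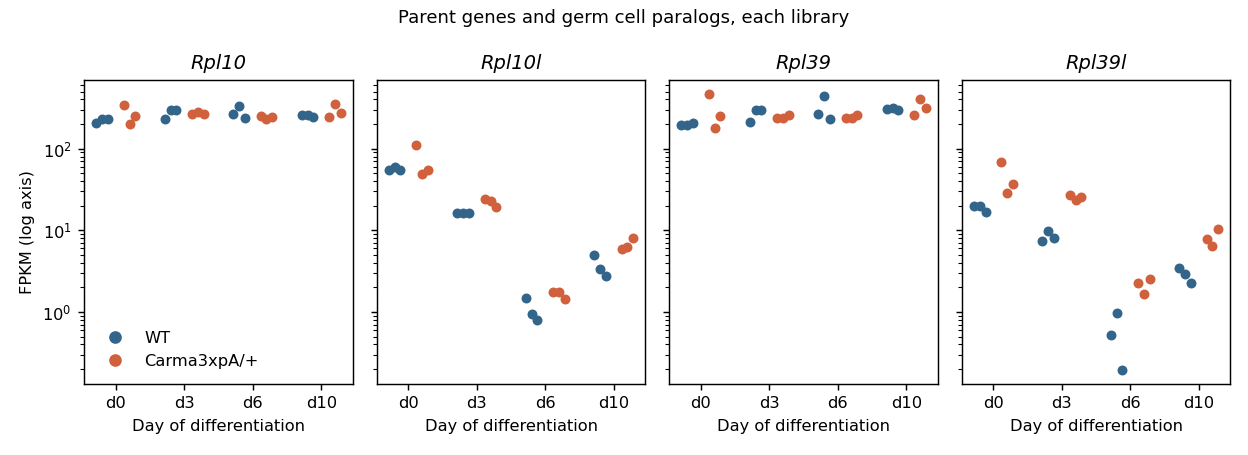
FPKM (y axis, log scale) of the parent genes Rpl10 and Rpl39 and their germ cell copies Rpl10l and Rpl39l by day (x axis). Each point is 1 library, blue for WT and orange for Carma3xpA/+. The copies drop to between 0.195 and 2.52 FPKM at d6, whereas the parents stay between 179 and 473 FPKM, and every orange point of Rpl39l lies above the blue points of its day.

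Other second copies changed less than Rpl10l and Rpl39l or were close to absent. Rpl3l, the striated muscle copy of Rpl3, was at 0.621 to 1.26 FPKM in the d0 libraries of both genotypes and at or under 0.297 FPKM in every library from d3 on. It was not tested. Summed FPKM of 5 cardiomyocyte markers was 13.2 to 15.1 in WT d0, 8.35 to 19.5 at d3, 607 to 790 at d6 and 383 to 552 at d10. In Carma3xpA/+ it was 16.9 to 19.3, 14.2 to 16.2, 542 to 643 and 981 to 1473. Of these markers Nkx2-5 was at 0 in all 3 libraries of Carma3xpA/+ d3. Rpl22l1, the copy of Rpl22 with 69.7% coding identity, stood at 49.6 FPKM in WT d0 and 73.1 in WT d3 (0.53, SE 0.197, adjusted p = 0.0286, limma). That call was lost (adjusted p up to 0.118) without WT d0 replicate 1 or 3 or WT d3 replicate 2 or 3. Rpl36al, the copy of Rpl36a with 87.7% identity, was higher at d3 than at d0 in WT by 0.56 (SE 0.147, adjusted p = 0.00276) and lower at d6 than at d3 (-0.48, 0.0076). The second call was lost (0.053) without WT d6 replicate 3. In Carma3xpA/+ the difference from d3 to d6 was -0.67 (adjusted p = 0.000532, limma), and it held without each library in turn. Rpl36al ran at 77.3% ± 1.41 (SD, n = 3) of the Rpl36a level in WT d0, 85.3% ± 5.27 in WT d3 and 65.5% ± 6.07 in WT d6, the lowest group. In Carma3xpA/+ it ran at 89.7% ± 10.5 at d0 and 108% ± 3.40 at d3.

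Rps27l, a copy of Rps27 that is a known target of p53, dipped at d6. Its WT libraries gave 155, 138 and 187 FPKM at d0, 212, 253 and 245 at d3, 115, 167 and 103 at d6, and 195, 233 and 181 at d10. The d6 libraries lay below all d3 and d10 libraries, while d0 overlapped both d6 and d10. The fall from d3 to d6 was -0.90 in WT (SE 0.236, adjusted p = 0.00258, limma) and -0.82 in Carma3xpA/+ (0.00497), and both held without each library in turn. The return from d6 to d10 was 0.68 in WT (0.0229), lost (up to 0.108) without WT d6 replicate 1 or 3 or d10 replicate 2. In Carma3xpA/+ it was 0.68 (0.0203), lost (up to 0.0936) without d6 replicate 1 or 2 or d10 replicate 2 or 3. Relative to Rps27 the level was 58.9% ± 3.74 (SD, n = 3) at d3 and 32.0% ± 1.93 at d6 in WT, and 68.1% ± 5.70 and 43.5% ± 7.18 in Carma3xpA/+. Of 14 other p53 targets tested, 12 fell and 1 rose from d0 to d3 in WT (median -0.94), 7 fell and 2 rose to d6 (median -0.32), and 9 rose and 1 fell to d10 (median 0.59). Of all tested genes 27.7% were called lower and 27.7% higher in the first of these steps, 24.7% and 35.4% in the second, and 23.9% and 24.6% in the last. Rps27rt on chromosome 9 (chr9:114982366-114982739, 1 exon) has the coding sequence of Rps27 without a difference over 252 bases, so reads cannot be assigned to either with confidence. Its level was 31.8 FPKM on average and ran at 6.84% to 11.2% of Rps27 in the 8 groups.

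Between d0 and d3 in WT, 10 of 85 members rose and 2 fell, against 27.7% of all tested genes called higher and 27.7% called lower. The median member difference was 0.23, against -0.00 over all genes, but it was -0.14 when the libraries were scaled on the 500 short genes, whose own median was 0.37. On that scale 1 member was called higher and 28 lower, against 11.8% and 39.7% of all genes. On the scale as deposited those that fell were Rpl10l and Rpl39l. Rpl29, a large subunit protein, was at 31.0, 28.6 and 32.0 FPKM at d0 and at 47.7, 53.2 and 50.9 FPKM at d3. The difference was 0.71 (SE 0.148, adjusted p = 0.0004, limma), and it was called (0.35, 0.00502) also on the short-gene scale. Beside Rpl22l1 and Rpl36al, Rps19bp1 (0.49, 0.0017), Rpl15 (0.53, 0.00351) and Rpl7 (0.42, 0.0125) rose too, and the last 3 held without each library in turn. None of these 3 was called on the short-gene scale, where Rps19bp1 was at 0.13 (adjusted p = 0.325), Rpl15 at 0.16 (0.101) and Rpl7 at 0.04 (0.638), nor was Rpl36al (0.19, 0.0538). Rps7 (0.51, 0.0163) was lost without WT d0 replicate 1 (up to 0.0597) and without WT d3 replicate 3. The remaining 3 that rose were Rpl7l1 (0.27, 0.026), Rps27l (0.57, 0.0482) and Rps27rt (0.79, 0.046), each lost without any of 4 or 5 of the 6 libraries. Fitted without the Carma3xpA/+ library that stood apart, which enters only the shared estimate of spread, 39 members were called, 34 of them higher, against 61.3% of all genes.

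In Carma3xpA/+ the same step gave 1 member higher and 7 lower, against 27.5% and 24.9% of all genes, and a median of -0.10. Without d0 replicate 1 the median was 0.21, and 15 members were called, 13 of them higher, against 53.0% of all genes. Of the 8 calls 3 were shared by both fits. On the short-gene scale 1 member was called higher and 17 lower, against 21.5% and 21.6% of all genes. Rpl7l1 rose, from 86.4, 70.5 and 65.0 FPKM at d0 to 120, 110 and 115 FPKM at d3 (0.64, SE 0.0983, adjusted p = 1.76e-05, limma; 0.76 without replicate 1). The d0 and d3 libraries did not overlap. Rps2, a small subunit protein at the entry of the messenger RNA channel, fell by 0.52 (adjusted p = 0.00337), or by 0.30 (0.0184) without replicate 1. Rplp2 (-0.64, 0.023), a protein of the stalk that recruits elongation factors, Rpl28 (-0.62, 0.00761) and Rpl8 (-0.50, 0.0236) were not called without replicate 1, with adjusted p of 0.199, 0.0534 and 0.172. Of these Rplp2 and Rpl8 were also lost without d3 replicate 1 or 2. The other two stalk proteins, Rplp0 and Rplp1, were not called in this step. Rplp1 was at 2978, 1168 and 1417 FPKM in Carma3xpA/+ d0 and at 1526, 1445 and 1592 FPKM at d3, where the d0 libraries lay on both sides of the d3 libraries (-0.16, adjusted p = 0.57). On the scale as deposited the sign of the member median in this step therefore turned on 1 library. With that library kept, the median was also -0.10 on the short-gene scale.

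From d3 to d6 no member rose in either genotype, against 35.4% of all genes in WT and 37.8% in Carma3xpA/+. In WT 9 members fell, against 24.7% of all genes, and the median was -0.10, or 0.04 on the short-gene scale and 0.02 after quantile scaling. In Carma3xpA/+ 20 fell, against 25.5% of all genes, with a median of -0.27 that ran from -0.41 to -0.03 over the scalings. Without the library that stood apart 17 members were called in WT, against 65.6% of all genes, and 40 in Carma3xpA/+, against 68.4%, every one of them lower. On the short-gene scale 5 members were called higher and 10 lower in WT, against 36.9% and 17.0% of all genes, and 3 higher and 13 lower in Carma3xpA/+, against 43.6% and 15.9%. On the scale as deposited, beside Rpl10l, Rpl39l, Rps27l and Rpl36al, the members that fell in both were Rpl7l1, Rps19bp1, Rplp0, Rps12 and Rpl6. Rpl7l1 was at 106, 113 and 114 FPKM in WT d3 and at 76.3, 75.8 and 69.0 FPKM in WT d6 (-0.59, SE 0.0983, adjusted p = 3.23e-05, limma), and at -0.84 (3.12e-07) in Carma3xpA/+. Rps19bp1 changed by -0.47 (0.00211) and -0.72 (2.82e-05). Rplp0, the base of the stalk, was at 583, 521 and 566 FPKM in Carma3xpA/+ d3 and at 338, 350 and 349 FPKM at d6, with no overlap (-0.69, 0.00115). Its WT difference was -0.41 (0.0349), lost (up to 0.138) without WT d3 replicate 2 or 3 or d6 replicate 1 or 3. Rps12 changed by -0.53 in WT (0.0205), lost (up to 0.0842) without WT d3 replicate 2 or WT d6 replicate 3, and by -0.63 (0.00647) in Carma3xpA/+. Rpl6 changed by -0.37 (0.013) in WT, lost without WT d6 replicate 3 (0.062), and by -0.50 (0.00151). Of the 20 calls in Carma3xpA/+, 12 held without each library in turn, Rpl7a (-0.54), Rpl29 (-0.55) and Rpl27 (-0.52) among them. The 8 that did not were Rpl34, Rpl14, Rpl19, Rpl15, Rpl10a, Rpl7, Rpl3 and Rpl4, at -0.54 to -0.28, each lost without any of 3 to 6 of the 6 Carma3xpA/+ libraries of d3 and d6 (adjusted p up to 0.158). Embryonic blood markers, 5 of 5 detected, summed to 2181 to 4385 FPKM in WT d6 against 1.16 to 13.1 in WT d3, and their part was not tested.

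Between d6 and d10 in WT the 3 members called were second copies, Rpl39l, Rpl10l and Rps27l, all higher, against 24.6% of all genes called higher and 23.9% called lower. The median was -0.06, running from -0.42 on the short-gene scale to -0.03 with median-of-ratios. On the short-gene scale 2 members were called higher and 72 lower, against 12.2% and 40.5% of all genes. Without the library that stood apart 7 were called, 4 higher and 3 lower, against 56.5% of all genes. In Carma3xpA/+ 10 members rose and none fell, against 26.2% and 29.1% of all genes. The median there was 0.28, or -0.33 on the short-gene scale and -0.07 after quantile scaling, and the 500 short genes had a median of 0.58. On the short-gene scale 2 were called higher and 58 lower, against 8.26% and 59.0% of all genes. Without the library that stood apart 42 rose, against 61.8% of all genes called. Rps19bp1 (0.51, 0.00144) held without each library in turn, but was -0.09 on the short-gene scale. Beside the germ cell copies, Rpl7l1, Rpl7a, Rpl36al, Rpl19, Rpl41 and Rps27l rose by between 0.28 and 0.68. Of these 6 only Rps27l kept a positive sign on the short-gene scale, and each was lost without Carma3xpA/+ d10 replicate 2, in which the members held 14.3% of summed FPKM against 11.8% and 12.6% in replicates 1 and 3. Apart from Rpl19 these were lost without other single libraries of d6 or d10 too (up to 0.225).

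On the scale as deposited, genes that build ribosomes mostly rose to d3 and fell to d6. No gene list was counted on the short-gene scale. That scale moved the WT median of all tested genes from -0.00 to -0.26 for d0 to d3. For d3 to d6 that median went from 0.10 to 0.20. For Carma3xpA/+ d0 to d3 it was 0.01 on both scales, and between genotypes at d0 it went from -0.03 to -0.31. In WT 26 of 46 tested genes for ribosome assembly and ribosomal RNA processing rose from d0 to d3 and 5 fell, with a median of 0.31, against 27.7% of all genes each way. From d3 to d6 44 of the 46 fell and none rose, with a median of -0.82, beside -0.10 for the members and 0.10 for all tested genes, of which 24.7% fell and 35.4% rose. In Carma3xpA/+ the counts were 30 higher and 0 lower, then 0 higher and 45 lower, with medians of 0.36 and -0.87, against 27.5% higher and 24.9% lower, then 37.8% and 25.5%, of all genes. Without d0 replicate 1 the first Carma3xpA/+ step gave 30 higher and 1 lower, with a median of 0.34. Nhp2, a protein of the particles that modify ribosomal RNA, went from 127.5 ± 2.49 FPKM (SD, n = 3) in WT d0 to 259 ± 6.08 at d3 and 96.8 ± 7.42 at d6. Bop1, needed for large subunit processing, went from 22.6 ± 2.62 to 46.0 ± 2.29 and 20.6 ± 0.980, and the helicase Ddx21 from 98.9 ± 4.35 to 111 ± 6.84 and 49.9 ± 2.70. At d10 the medians were close to zero, -0.06 in WT with 4 higher and 11 lower, and -0.00 in Carma3xpA/+ with 15 higher and 10 lower, where 24.6% and 23.9% of all genes were called higher and lower in WT and 26.2% and 29.1% in Carma3xpA/+. Between genotypes 9, 3, 1 and 4 of the 46 were higher in Carma3xpA/+ at d0, d3, d6 and d10 and none lower, against 18.8%, 6.47%, 7.78% and 10.9% of all genes called. Without d0 replicate 1 the d0 count was 7 higher and 1 lower, against 17.0%.

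RNA polymerase I, which transcribes ribosomal RNA, had 15 genes tested. The counts of this and the next lists stand against the shares of all genes just given for the same steps. In WT 9 rose and 2 fell to d3, 14 fell to d6, and 1 rose and 4 fell to d10. In Carma3xpA/+ 11 rose and 2 fell, 13 fell, and 5 rose and 5 fell. Its subunit Polr1e was at 4.38 ± 0.115 FPKM (SD, n = 3) in WT d0 and 14.5 ± 1.93 at d3. Of 21 translation factors and other TOP messages, 8 rose and 4 fell to d3 in WT, 1 rose and 11 fell to d6, and 7 fell to d10, Npm1, a nucleolar protein, by -0.79 to d6. In Carma3xpA/+ 7 rose and 5 fell, 1 rose and 13 fell, and 5 rose and 7 fell. Among 15 Myc and mTOR regulators, 2 rose and 3 fell, 3 rose and 5 fell, and 2 rose and 7 fell in WT, and 6 and 2, 2 and 4, and 2 and 8 in Carma3xpA/+. Without Carma3xpA/+ d0 replicate 1, where 53.0% of all genes were called in the first Carma3xpA/+ step, 9 polymerase I genes rose and 1 fell in it, 7 translation factors rose and 3 fell, and 3 of the regulators rose and 1 fell. Mycn, a Myc family transcription factor, was at 73.3 ± 3.07 FPKM in WT d0, 37.0 ± 1.13 at d3 and 23.5 ± 0.566 at d6. The ribosomal proteins Fau and Rack1, outside the name rule, were called in no step of either genotype. Without the library that stood apart, Rack1 was lower at d6 than at d3 in Carma3xpA/+ (-0.28, adjusted p = 0.0122, limma). In the same fit 2 of the 3 tested ribosomal proteins outside the name rule were called higher at Carma3xpA/+ d10 than at d6. Fau was among them (0.39, adjusted p = 0.00422, limma), and 61.8% of all genes were called in that step.

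Rps24, a small subunit protein mutated in some cases of human Diamond-Blackfan anaemia, was called in no step at gene level, while its transcripts exchanged. The gene (chr14:24487125-24496959, plus strand) was at 194, 180 and 193 FPKM in WT d0, 198, 245 and 223 at d3, 198, 253 and 166 at d6, and 203, 218 and 195 at d10. The d0 libraries lay below the d3 and the d10 libraries, and the other pairs of stages overlapped. Among other places, its annotated transcripts (GENCODE vM21) differ in short exons at the end of the coding sequence. These are shown because they set the last codons. The stop codon is in capitals.
Exon of 20 bases (chr14:24495430-24495449), ending the 130 codons of Rps24-202: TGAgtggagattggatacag
Exon of 18 bases (chr14:24494052-24494069), ending the 131 codons of Rps24-205: aaaTGAaatacctagcag
Start of the last exon (chr14:24495775-24495786), ending the 133 codons of Rps24-210, which skips both: ccaaaggagTAG
Rps24-205 also carries the 20-base exon, after its stop codon. The codon numbers leave out the stop codon.

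In the transcript table Rps24-202 was at 232, 266 and 250 FPKM in WT d3 and at 1021, 823 and 829 FPKM in WT d6. Rps24-210 was at 475, 612 and 563 FPKM in WT d3 and at 192, 196 and 204 FPKM in WT d6. The groups did not overlap for either, and they moved in opposite directions: 1.83 for Rps24-202 (SE 0.169, adjusted p = 1e-07, limma on the transcript table) and -1.47 for Rps24-210 (SE 0.261, 0.000224). In Carma3xpA/+ the differences were 1.89 (5.98e-08) and -1.19 (0.00147). Among the summed Rps24 transcripts, Rps24-202 held 38.7% ± 2.03 (SD, n = 3) in WT d0, 22.0% ± 0.615 at d3, 63.5% ± 5.97 at d6 and 46.3% ± 2.11 at d10. Rps24-210 held 40.4% ± 2.98, 48.3% ± 1.79, 14.2% ± 1.62 and 23.8% ± 2.08. In Carma3xpA/+ Rps24-202 held 34.0% ± 2.54, 20.9% ± 1.68, 63.4% ± 2.28 and 45.1% ± 5.25. The earlier fall of Rps24-202 from d0 to d3 was -0.73 in WT (0.00284) and -0.91 in Carma3xpA/+ (0.000486).

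Rps24-205, with the 18-base exon, rose most from d6 to d10. A smaller rise from d0 to d3 was called too, at 0.56 in WT (adjusted p = 0.00768, limma on the transcript table) and 0.63 in Carma3xpA/+ (0.0035). Both of these held without each library in turn. The transcript was at 70.9, 72.8 and 72.9 FPKM in WT d6 and at 236, 269 and 209 FPKM in WT d10 (1.70, SE 0.148, adjusted p = 7.62e-08, limma on the transcript table). In Carma3xpA/+ it went from 83.2, 87.4 and 91.7 FPKM to 327, 356 and 385 FPKM (2.01, 1.48e-08). Every d10 library lay above every d6 library of both genotypes. Its share of Rps24 transcripts was 17.0% ± 1.09 (SD, n = 3) in WT d10 and 22.1% ± 1.59 in Carma3xpA/+ d10, against 4.19% ± 0.385 and 4.42% ± 1.03 at d0. The genotypes differed at d10 by 0.58 (SE 0.148, adjusted p = 0.036), a call that was lost (up to 0.174) without WT d10 replicate 1 or 3 or Carma3xpA/+ d10 replicate 2 or 3. Rps24-201 and Rps24-207 held 5.58% to 14.3% of the transcripts in the group means. Over 24921 transcripts tested, 26.3%, 29.1% and 20.1% were called in the WT steps, 24.8%, 31.6% and 24.2% in the Carma3xpA/+ steps, and 2.99% between genotypes at d10. Of 215 member transcripts 35 rose and 5 fell to d3 in WT, 2 rose and 29 fell to d6, and 7 rose and 2 fell to d10. Gene FPKM is not the sum of transcript FPKM in these tables, and short-read assignment between transcripts that share most coding exons is an estimate. Rps24-202 and Rps24-205 are annotated with 519 and 525 bases, and Rps24-210 with 1613. The last exon has 71 bases in Rps24-202 and 1185 in Rps24-210. The part of this length difference in the exchange was not tested.

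**Figure D4:**
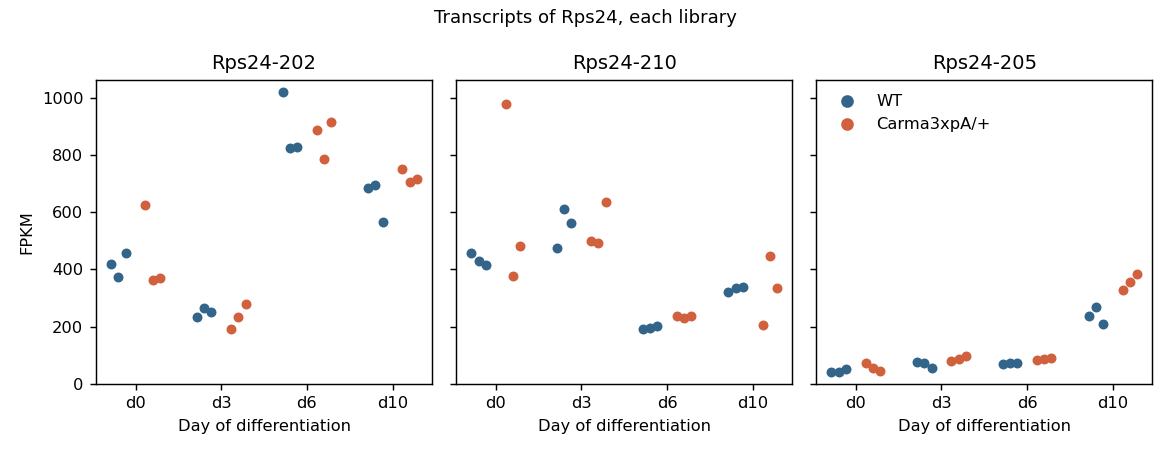
FPKM (y axis) of 3 Rps24 transcripts by day (x axis), 1 point per library, blue for WT and orange for Carma3xpA/+. Rps24-202 rises and Rps24-210 drops between d3 and d6 in both genotypes, and Rps24-205 lies between 209 and 385 FPKM at d10 and at or under 97.2 FPKM on the earlier days.

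In other members, among them Rpl10, Rpl29, Rpl38, Rps13, Rps27a and Rps28, the leading transcript by group mean differed between groups. These changes of the leading transcript were not tested, and some were near ties. The transcript leading in WT d0 held 48.5% to 56.4% of Rps28 and 45.4% to 57.0% of Rps27a over the groups. Within WT d3 alone, Rpl10-201 held 37.4% to 54.2% in single libraries. Replicates of Rps13-201 spread widely, at 52.8, 169 and 195 FPKM in WT d3.

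Between genotypes at the same day few members were called. At d0 7 of 85 were higher in Carma3xpA/+ and 1 lower, against 18.8% of all genes called, with a median of 0.30 that was -0.01 without replicate 1 and -0.09 on the short-gene scale. The direction of the calls turned on the short-gene scale, with 2 members higher and 8 lower. The share of all genes called there is not given here. Without replicate 1, on the scale as deposited, 2 were higher and 1 lower, against 17.0%. These were Rpl39l, Rps19bp1 and Rpl7l1. Rps19bp1 was at 54.8, 37.5 and 36.9 FPKM in Carma3xpA/+ d0 and at 31.0, 28.9 and 28.4 FPKM in WT d0, without overlap (0.51, SE 0.12, adjusted p = 0.00627, limma; 0.33 and 0.0217 without replicate 1). On the short-gene scale this difference was 0.13 and was not called (adjusted p = 0.337). Rpl7l1 was at 86.4, 70.5 and 65.0 FPKM against 92.8, 103 and 82.2 FPKM in WT, with some overlap (-0.32, 0.0275). Its call was lost (up to 0.141) without WT d0 replicate 1 or 2 or Carma3xpA/+ d0 replicate 2 or 3. The other calls at d0 were Rpl27 (0.63, 0.0147), Rpl38 (0.62, 0.0286), Rpl19 (0.57, 0.0121), Rpl36al (0.55, 0.0139) and Rpl26 (0.49, 0.0394), none of them called without replicate 1, where adjusted p ran from 0.0522 to 0.215. Rpl38 and Rpl26 were also lost without WT d0 replicate 1 and without WT d0 replicate 2, Rpl27 without WT d0 replicate 1, and Rpl19 and Rpl36al without WT d0 replicate 2. Rpl26 was lost without Carma3xpA/+ d0 replicate 3 too.

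At d3 only Rpl39l was called, 1 of 85 against 6.47% of all genes, and against 11.7% without the library that stood apart. At d6 Rpl39l was higher and Rpl29 lower in Carma3xpA/+, against 7.78% of all genes. Rpl29 was at 30.1, 29.0 and 30.3 FPKM against 44.1, 52.0 and 40.7 FPKM in WT, without overlap (-0.59, SE 0.148, adjusted p = 0.017, limma), a call lost (up to 0.103) without WT d6 replicate 2 or Carma3xpA/+ d6 replicate 1 or 2. The median at d6 was -0.20, between -0.22 and -0.11 over the scalings, and without the library that stood apart 9 members were called, 8 of them lower, against 12.8%. Rps27rt had the lowest value at d6 (-0.99, adjusted p = 0.0719), with 75.0 FPKM in WT d6 replicate 2 against 32.9 and 33.3 FPKM in the other WT libraries. At d10 Rpl39l and Rpl10l were called, against 10.9% of all genes, and 4 members without the library that stood apart, against 17.9%.

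No member was called for a genotype difference in the steps themselves with limma, against 3.63% of all genes for d0 to d3, 2.66% for d3 to d6 and 4.22% for d6 to d10. At an unadjusted p under 0.05 there were 3, 0 and 2 of 85 members. The shares of all genes above are at adjusted p, and those at the unadjusted threshold are not given here. Without the library that stood apart 1, 0 and 1 were called, against 7.45%, 5.31% and 8.05% of all genes.

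The 7 members on chromosome 11, Rpl19, Rpl23, Rpl23a, Rpl26, Rpl27, Rpl38 and Rps27a, lay above most other members in the genotype comparison at every day. Genes of chromosome 11 were already known to run higher in Carma3xpA/+ in these data, so this is not independent evidence. Their median difference was 0.49 at d0 against 0.30 for the 78 other members, or 0.27 against -0.03 without replicate 1. It was 0.28 against -0.06 at d3, 0.09 against -0.22 at d6 and 0.35 against 0.11 at d10. Between the medians this makes 0.19, or 0.30 without replicate 1, then 0.34, 0.31 and 0.24. All 7 lay above the median of the other members at d3, d6 and d10, and 6 of 7 did at d0. Every Carma3xpA/+ library exceeded every WT library for 2 of 7 at d0, 5 at d3, 0 at d6 and 7 at d10. For the other 78 members this held for 5, 4, 1 and 7, and over all tested genes for 13.2%, 19.1%, 16.8% and 14.4%. In the opposite direction, with every Carma3xpA/+ library below every WT library, there were 0, 2, 23 and 1 of the other 78 members, against 15.4%, 19.3%, 14.2% and 14.6% of all tested genes. None of the 7 was called at d3, d6 or d10.

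Rpl19, a large subunit protein, was at 1053, 1450 and 1203 FPKM in Carma3xpA/+ d10 and at 912, 959 and 833 FPKM in WT d10 (0.44, SE 0.149, adjusted p = 0.0625, limma). Rpl26, which also binds the message of p53, was at 628, 625 and 714 FPKM in Carma3xpA/+ d3 and at 444, 535 and 545 FPKM in WT d3 (0.37, 0.213). Rps27a, which is made as a fusion with ubiquitin, was at 475, 467 and 544 FPKM in Carma3xpA/+ d3 and at 347, 468 and 450 FPKM in WT d3. The first pair of groups did not overlap, nor did the second, whereas the Rps27a groups met at 467 and 468 FPKM. Rpl38 lies at chr11:114668524-114672331 on the plus strand. In mouse, loss of 1 copy of Rpl38 alters the pattern of the axial skeleton. Its RefSeq window of the same span as above is shown because it holds 3 of the searched motifs, in capitals: the GC box, the ETS core and the pyrimidine run.
Rpl38 (chr11:114668520-114668589, plus strand): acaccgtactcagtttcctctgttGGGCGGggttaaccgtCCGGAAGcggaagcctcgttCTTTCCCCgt
Rpl38 was at 816, 1091 and 930 FPKM in Carma3xpA/+ d10 and at 735, 765 and 690 FPKM in WT d10 (0.36, adjusted p = 0.248, limma), without overlap. Rack1, a small subunit protein outside the name rule that also lies on chromosome 11, was at 304 ± 8.82 FPKM (SD, n = 3) in Carma3xpA/+ d3 against 253 ± 21.2 in WT d3 (0.27, 0.256), and its d10 difference was 0.36 (0.066).

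**Figure D5:**
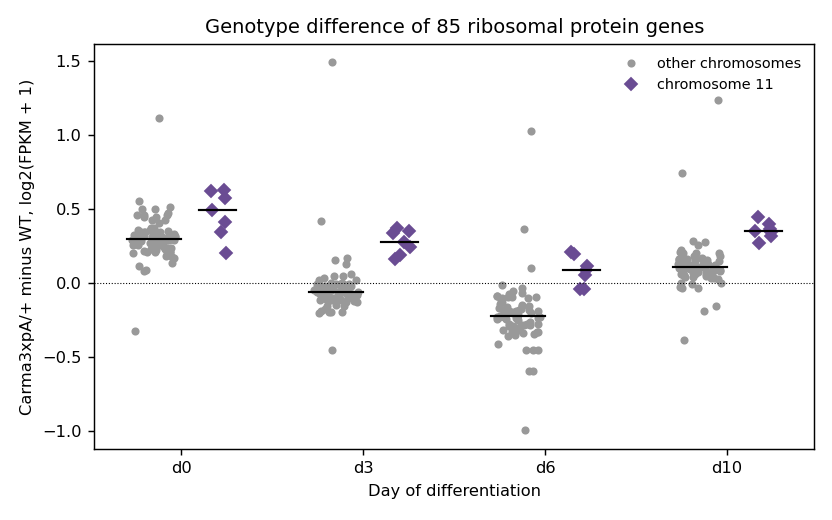
Genotype difference, Carma3xpA/+ minus WT in log2(FPKM + 1) (y axis), of the 85 tested ribosomal protein genes by day (x axis). Purple diamonds are the 7 genes on chromosome 11, grey points the 78 others, and black lines the medians, 0.28 against -0.06 at d3 and 0.35 against 0.11 at d10. The highest grey point of each day is Rpl39l.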

How the data were processed

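Polyadenylated RNA of 24 libraries, 8 groups of 3, was sequenced with a strand-specific kit, per the labels' protocols. FastQC, cutadapt, HISAT2 and StringTie and the build mm10 stand in the submitters' processing notes, with no settings or versions in the sources used here. The deposited tables hold FPKM per gene and per transcript, normalised by the authors, so depth is unknown. Here limma 3.58.1 (R 4.3.3) was run on log2(FPKM + 1) (trend, 8 group means, 16 residual degrees of freedom) for genes of at least 1 FPKM in at least 3 libraries, with Benjamini-Hochberg adjustment over 13373 genes in each of 13 comparisons. The test was checked on simulated data. Length, exons and coding sequences came from GENCODE vM21 and promoters from RefSeq. In the main fit the replicate numbers were not used to pair the libraries. The members, lists and rules were chosen with earlier results of these data known. Named genes were drawn from the 5 members with the largest differences each way per comparison, second copies, stalk proteins, members on chromosome 11, the 5 highest and lowest levels, members with changing transcripts, and up to 4 called genes per list, and other called members were named after their values were seen. Scaling on short genes and the transcript test were chosen after seeing the data. Some members are not reported here.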

Additional observations from a re-analysis of the deposited data

How the results depend on the processing

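Steps are named WT or Carma for Carma3xpA/+, and counts are members called in either direction. For most of these settings the share of all genes called is not given here. The counts thus show only how the calls depend on the setting and are no result about the family. Leaving out each library in turn gave 7 to 39 for WT d0 to d3, 5 to 17 for WT d3 to d6 and 2 to 7 for WT d6 to d10. The Carma steps gave 4 to 23, 12 to 40 and 4 to 42, the genotype comparisons 3 to 50 at d0, 1 to 1 at d3, 1 to 9 at d6 and 1 to 4 at d10, and the differences between steps 0 to 1, 0 to 0 and 0 to 1. Medians ran 0.17 to 0.31, -0.21 to 0.02 and -0.17 to 0.06 in the WT steps, -0.33 to 0.21, -0.31 to -0.21 and 0.18 to 0.37 in the Carma steps, and -0.01 to 0.52, -0.12 to -0.01, -0.32 to -0.10 and -0.00 to 0.22 between genotypes. For the differences between steps they ran -0.57 to -0.04, -0.27 to -0.05 and 0.22 to 0.43.

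With median-of-ratios scaling the count was 6 for WT d0 to d3 and 1 for genotype at d10, and the Carma d3 to d6 median was -0.41. Quantile scaling gave 19, 18 and 29 in the WT steps, 17 and 19 in the first and last Carma steps, 4, 10 and 5 between genotypes at d3, d6 and d10, and 1 for the first difference between steps. Its medians were 0.07 for WT d0 to d3, -0.05 and -0.07 for the last pair of Carma steps, and 0.12 for the last difference between steps. Rescaling to the other genes gave 14 (median -0.25) for WT d6 to d10, and 13 (-0.16) and 5 (0.04) for the last pair of Carma steps. Scaling on short genes gave 29, 15 and 74 in the WT steps, 18 and 60 in the first and last Carma steps, 3 and 4 between genotypes at d3 and d6, and 1 for the first difference between steps. Its medians were -0.14 and -0.42 for the first and last WT steps, -0.03 and -0.33 for the last pair of Carma steps, -0.05 for genotype at d10, and 0.03 and 0.08 for the first and last differences. This scaling lowered the median of all genes by up to 0.47 (-0.47, Carma d6 to d10). With Carma3xpA/+ d0 replicate 1 also left out the counts were 37, 24 and 82, then 18 and 73, between genotypes 42, 4, 17 and 6, and 6 and 1 for the first and last differences. The medians were -0.14, -0.43, -0.03, -0.32, -0.25 for genotype at d0, -0.04 at d10, 0.18 and 0.09. Fitting only the groups compared gave 46 for WT d0 to d3, 2, 59 and 23 in the Carma steps, and 0, 2 and 1 between genotypes at d0, d3 and d10. Without second copies, Rps19bp1 and Rpl7l1, 5, 3 and 0 were called in the WT steps, 5 and 4 in the first and last Carma steps, and 4, 0, 1 and 0 between genotypes. Without chromosome 11 the d0 count was 4. The causes were not tested.

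Signs turned for Rpl7l1 in WT d0 to d3 (-0.10 on both short-gene scales), Rpl4 in Carma d3 to d6 (0.07, quantile) and Rpl10l between genotypes at d0 (-0.13 and -0.35 on the short-gene scales, and between -0.11 and 0.48 leaving out each library, lowest without Carma3xpA/+ d0 replicate 1). In Carma d6 to d10 on the short-gene scales they turned for Rpl7l1 (-0.32 and -0.32, and -0.01 with quantile scaling), Rpl7a (-0.27 and -0.26), Rpl36al (-0.20 and -0.20), Rpl19 (-0.16 and -0.15), Rpl41 (-0.11 and -0.11) and Rps19bp1 (-0.09 and -0.08). For single members 1054 alternatives kept direction and call, 235 lost the call and 1 gained it. Deviations of same-numbered libraries from their group means correlated between -0.26 and 0.24 over 84 pairs, with a median of 0.0065 and 8 over 0.1. Differently numbered libraries were not compared, so this does not settle whether the numbers pair them. With the replicate number as a block 10, 9 and 3 members were called in the WT steps, 8, 17 and 9 in the Carma steps, 7, 1, 2 and 2 between genotypes, and 0 for each difference between steps.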
